A study of Homo sapiens with 9 samples.

Results

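The 51 genes described here encode proteins that license human origins of DNA replication, open them and copy the DNA at the fork, or that are related to these steps. The related genes restrain licensing, supply deoxynucleotides, protect the fork or copy chromatin, and include MCM8, which acts in recombination repair. All 51 genes were chosen by name and role from the deposited count table, which holds 112171 annotated features, 57820 of them GENCODE genes. Each of the 51 symbols matched 1 GENCODE entry, and all 51 had enough counts to be tested. The cells were PANC-1, an established human cell line of pancreatic carcinoma origin, and all of them spent 12 h under hypoxia before total RNA was taken. One group was in medium with rakicidin A at 42 nM, a second in medium with BE-43547A1 at 41 nM and the third in medium with 0.04% of the solvent DMSO, with 3 libraries in each group. The compound doses were close but not equal, and how much DMSO the compound media held is not stated. All comparisons lie within hypoxia. Separate cultures are not stated for the replicates either, so p-values measure only the spread between libraries, and that spread may be technical.

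In the G1 phase of the cell cycle the origin recognition complex (ORC) sits on DNA, and CDC6 and CDT1 join it to load the ring of MCM2 to MCM7, a helicase, around the double strand. This step is called licensing. CDC45 and the GINS complex then turn the loaded ring into the active helicase, and polymerases, the clamp PCNA and its loader, and enzymes that finish the lagging strand form the fork. Geminin binds CDT1 and prevents a further round of licensing in the same cycle, and many of these genes are known targets of the E2F transcription factors, which act at the entry into S phase. In a culture that divides, the RNA of these genes depends on how many cells are near S phase as well as on the RNA per cell, and bulk libraries cannot tell these apart.

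Promoter windows of 4 of the genes are shown, of 1 that rose and 3 that fell, with different numbers of matches to the E2F motif. They run from 250 bases before to 50 bases after the annotated start, in RefSeq on build GRCh38.p14, and are written 5′ to 3′ on the strand of the gene. CDC6 rose after both compounds, MCM6 and CLSPN fell after both, and PRIM1 had the largest fall of the 51 genes after rakicidin A. Capitals mark matches to the E2F motif searched, which was TTTCCCGC, TTTCGCGC, TTTGCCGC or TTTGGCGC on either strand, with overlapping matches on both strands counted separately.
CDC6, chr17:40287629-40287928, plus strand: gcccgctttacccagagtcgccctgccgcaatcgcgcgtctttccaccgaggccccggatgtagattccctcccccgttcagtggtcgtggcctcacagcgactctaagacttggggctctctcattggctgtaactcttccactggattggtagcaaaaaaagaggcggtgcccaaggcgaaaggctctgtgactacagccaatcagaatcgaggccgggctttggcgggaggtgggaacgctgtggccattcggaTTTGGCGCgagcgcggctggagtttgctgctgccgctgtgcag
MCM6, chr2:135876394-135876693, minus strand: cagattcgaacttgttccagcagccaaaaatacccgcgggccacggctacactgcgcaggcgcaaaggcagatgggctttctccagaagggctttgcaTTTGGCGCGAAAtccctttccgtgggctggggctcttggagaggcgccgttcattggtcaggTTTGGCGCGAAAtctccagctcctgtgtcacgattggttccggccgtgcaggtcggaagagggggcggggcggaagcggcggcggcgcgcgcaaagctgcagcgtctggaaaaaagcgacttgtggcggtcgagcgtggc
CLSPN, chr1:35769929-35770228, minus strand: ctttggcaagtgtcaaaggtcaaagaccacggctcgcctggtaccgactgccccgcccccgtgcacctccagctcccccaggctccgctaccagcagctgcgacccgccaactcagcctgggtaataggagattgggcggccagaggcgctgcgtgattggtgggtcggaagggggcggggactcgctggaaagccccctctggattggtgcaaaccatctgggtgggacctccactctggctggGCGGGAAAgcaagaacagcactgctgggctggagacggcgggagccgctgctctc
PRIM1, chr12:56752274-56752573, minus strand: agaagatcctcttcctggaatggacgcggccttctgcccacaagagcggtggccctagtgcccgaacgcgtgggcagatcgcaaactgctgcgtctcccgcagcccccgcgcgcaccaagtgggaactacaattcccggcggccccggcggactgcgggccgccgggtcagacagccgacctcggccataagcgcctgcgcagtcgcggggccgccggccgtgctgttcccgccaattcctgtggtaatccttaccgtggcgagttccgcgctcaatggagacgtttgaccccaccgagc

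CDC6 held 1 match, with its first base at position 8 after the start, and MCM6 held 4 matches in overlapping pairs, at positions -152 and -148 and at positions -90 and -86. CLSPN held 1 match at position -5, and PRIM1 held none in its window. RefSeq windows were matched by symbol for 45 of the 51 genes, with 59 windows since some genes have several starts, and MCM4, MCM5, GINS4, POLD3, RPA2 and RPA3 had none at hand. At least 1 match stood in the windows of 23 of the 45 genes, or 51.1%, against 3.99% of 27305 genes with a window. The sequence CCAAT, on either strand, stood in 64.4% of the 45 genes against 39.7% of all genes. TTTGAA or TTTAAA, the core of the CHR element of cell cycle genes, stood in 11.1% against 27.9%, and the AP-1 motif TGANTCA in 2.22% against 9.37%. Genes with and without a match both held rising and falling members. Of the 23 with a match 3 rose and 15 fell after rakicidin A, and of the 22 without one 6 rose and 11 fell. Of all features tested 31.9% rose and 32.7% fell in that comparison. The median log2 fold change was -0.33 with and -0.16 without a match after rakicidin A, and -0.43 with and -0.34 without one in BE-43547A1 libraries, given as a description with no test.

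The libraries held 26203326 to 34870860 counts on features after rakicidin A, 39807220 to 45048999 after BE-43547A1 and 27696394 to 30596594 in DMSO, and the group means of the 51 genes lay between 5.26 and 538 CPM. CPM here are counts normalised to library size with TMM factors, which assume that most genes do not change. The label of the cells was checked against markers. The 5 epithelial genes listed were KRT7, KRT8, KRT18, KRT19 and EPCAM. They summed to 2423 to 2539 CPM after rakicidin A, 3368 to 3632 CPM after BE-43547A1 and 2839 to 3041 CPM in DMSO. Most of these sums came from KRT8, KRT18 and KRT19. KRT7 was scarce, with group means of 5.10 to 6.58 CPM, and EPCAM had 14.7 to 18.9 CPM. The 5 leukocyte markers summed to 1.53 to 3.46 CPM over all libraries, with CD3E at 0 counts, and the 4 stromal and endothelial markers found to 4.08 to 10.8 CPM. DMSO replicate 3 stood apart from its group, with 0.520% of its counts on mitochondrially encoded genes against 0.287 and 0.334%, and with MALAT1, a nuclear noncoding RNA, at 8879 CPM against 4924 and 5003 CPM. MALAT1 also differed between groups, at 6658 to 7287 CPM after rakicidin A and 10369 to 11691 CPM after BE-43547A1, and its part in the results was not tested. Results that change without DMSO replicate 3 are named where they stand.

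Most of the replication genes were lower after either compound, and more of them fell after BE-43547A1. In the comparison with DMSO a gene passed at an edgeR adjusted p below 0.05 over all 22353 features tested. After rakicidin A 9 of the 51 genes rose and 30 fell, that is 17.6 and 58.8%, against 31.9% of all features that rose and 32.7% that fell. After BE-43547A1 3 rose and 39 fell, that is 5.88 and 76.5%, against 35.3% and 35.1% of all features. The median log2 fold change of the 51 genes was -0.26 after rakicidin A, where that of all features was -0.023, and -0.41 after BE-43547A1, where that of all features was -0.00026. How far their sum fell depended on the scaling. The summed CPM were 3813 to 3840 after rakicidin A, 2937 to 3052 after BE-43547A1 and 3892 to 4047 in DMSO. These sums include CDC6, which rose, at a mean of 538 CPM after rakicidin A, 183 after BE-43547A1 and 97.8 in DMSO. As a share of all counts on features, which is scaling by total counts alone, the 51 genes took 0.339 to 0.345% with rakicidin A, 0.282 to 0.295% with BE-43547A1 and 0.448 to 0.462% in DMSO. The 3 groups did not overlap on either scale. The heat map of the genes by library shows the same order.

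**Figure D1:**
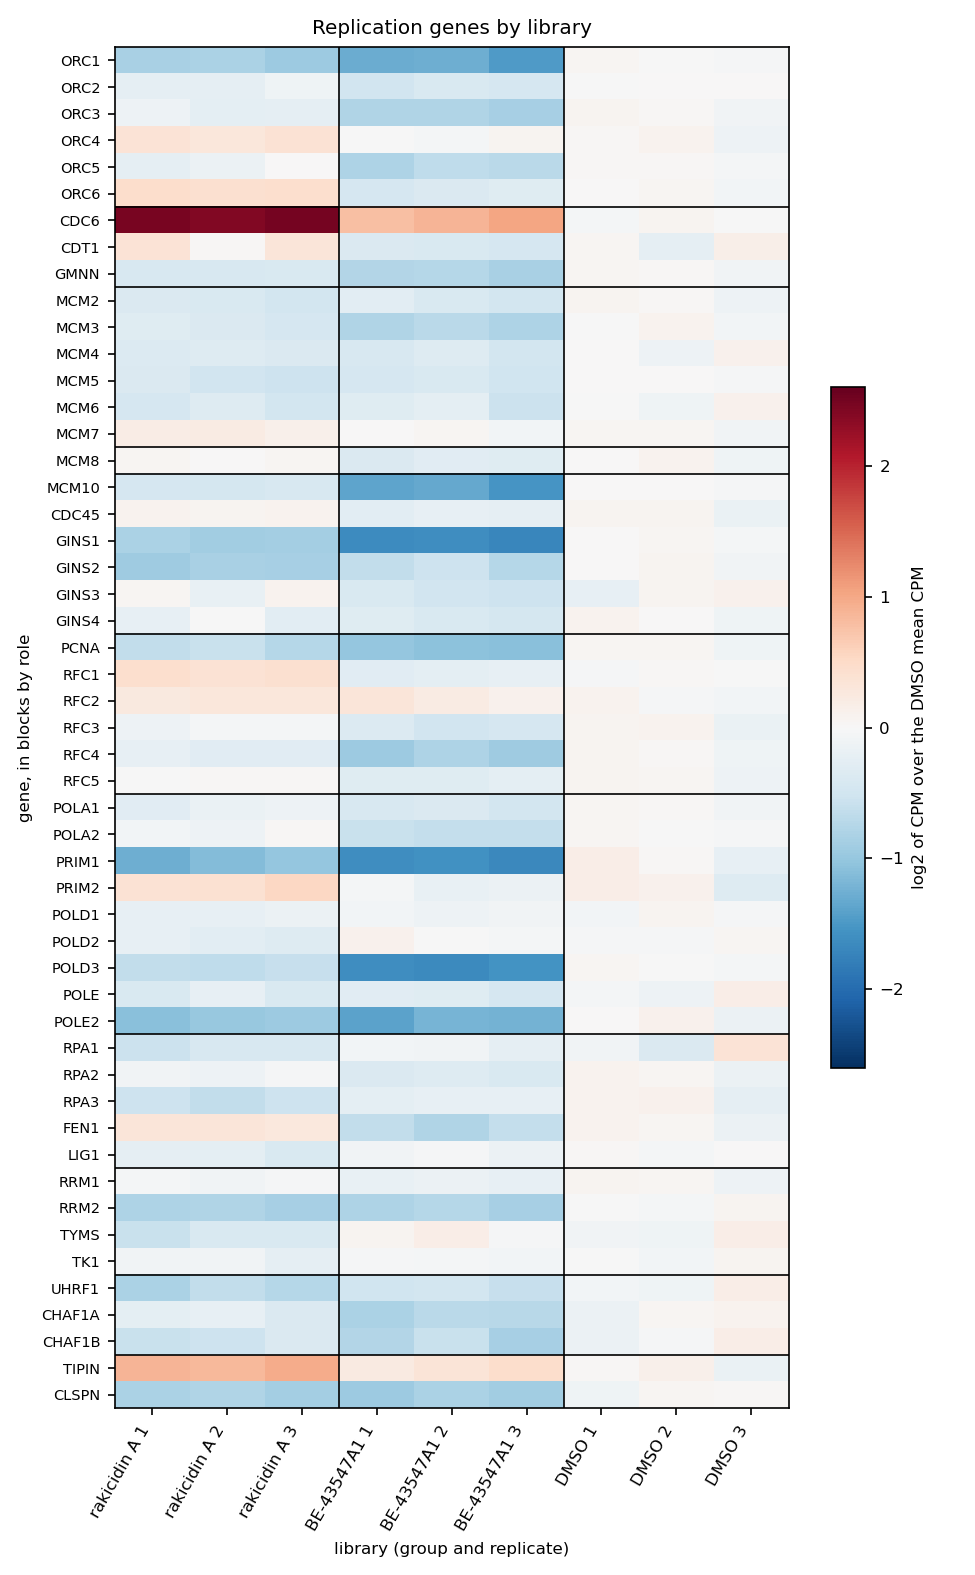
Heat map of the 51 replication genes (rows, in blocks by role) in the 9 libraries (columns, by group and replicate). Colour gives log2 of the CPM over the mean CPM of the 3 DMSO libraries, red above and blue below, and the CDC6 row is red in all 6 libraries with a compound while the GINS1, PRIM1 and POLE2 rows are blue in them.

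How a gene is placed relative to the others depends on the scaling between libraries. With total counts alone the median of all features lay at -0.38 after rakicidin A and -0.24 after BE-43547A1, with 4477 features higher and 11392 lower in the first comparison and 5951 and 10450 in the second. In that scaling 2 of the 51 genes rose and 42 fell after rakicidin A, and 1 rose and 47 fell after BE-43547A1. After rakicidin A 11 genes that had not passed then fell (ORC5, MCM8, CDC45, GINS3, GINS4, RFC3, RFC5, POLA2, RPA2, RRM1 and TK1), and after BE-43547A1 8 did (ORC4, MCM7, PRIM2, POLD1, POLD2, RPA1, LIG1 and TK1). Rises and falls below are those with TMM, relative to a median of all features near 0, and rises that were lost or turned with total counts alone are named with the gene. Where a pair of log2 fold changes is given, the first is rakicidin A over DMSO and the second BE-43547A1 over DMSO.

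The subunits of the origin recognition complex did not move as one. ORC1, the subunit whose abundance is known to follow the cell cycle, fell most. ORC1 had 13.1, 13.5 and 12.3 CPM after rakicidin A, 9.65, 9.76 and 8.52 CPM after BE-43547A1 and 24.4, 23.5 and 23.1 CPM in DMSO. Both sets of treated libraries lay below every DMSO library, with log2 fold changes of -0.86 ± 0.08 after rakicidin A (± SE, adjusted p = 1.87e-08) and -1.34 ± 0.079 after BE-43547A1 (adjusted p = 3.09e-11). ORC6, the smallest subunit, went in opposite directions. ORC6 had 50.7, 49.5 and 50.2 CPM after rakicidin A, 27.2, 28.5 and 29.6 CPM after BE-43547A1 and 37.1, 38.5 and 35.5 CPM in DMSO. The rakicidin A libraries lay above DMSO (0.44 ± 0.06, adjusted p = 4.08e-06) and the BE-43547A1 libraries below it (-0.38 ± 0.061, adjusted p = 1.95e-05), but with total counts alone the first was 0.079, adjusted p = 0.234.

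Among the other ORC subunits, ORC3 had 64.8, 59.4 and 60.9 CPM after rakicidin A, 41.4, 41.3 and 39.5 CPM after BE-43547A1 and 74.7, 72.7 and 66.5 CPM in DMSO, and fell after both (-0.21 and -0.81). ORC2 fell as well (-0.19 ± 0.056 and -0.44 ± 0.056), and ORC5 had -0.12 after rakicidin A, which did not pass (adjusted p = 0.159), and fell after BE-43547A1 (-0.72). The small falls of ORC2 and ORC3 after rakicidin A did not pass without single libraries, as ORC2 was -0.15, adjusted p = 0.0565 without rakicidin A replicate 1 and -0.16, adjusted p = 0.0509 without replicate 2, and ORC3 was -0.17, adjusted p = 0.0541 without replicate 2. ORC4 had 66.5, 63 and 67.3 CPM after rakicidin A, 51.6, 50.2 and 54.2 CPM after BE-43547A1 and 52.8, 55.2 and 47.1 CPM in DMSO. ORC4 rose after rakicidin A (0.34 ± 0.065, adjusted p = 0.000133), a change that was -0.014, adjusted p = 0.85 with total counts alone. After BE-43547A1 ORC4 had 0.0086 (adjusted p = 0.912), and -0.23, adjusted p = 0.0033 with total counts alone.

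CDC6, the ATPase that joins ORC to load the helicase, had the largest change of the 51 genes after rakicidin A. After BE-43547A1 it had the largest rise, while several genes fell by more, such as GINS1 (-1.65). CDC6 had 544, 519 and 549.9 CPM after rakicidin A, 168, 181 and 199 CPM after BE-43547A1 and 94.1, 103 and 96.7 CPM in DMSO. The 3 groups did not overlap, and the rakicidin A libraries stood far above the others. The rise was 5.50-fold after rakicidin A (log2 2.46 ± 0.066, adjusted p = 3.35e-16) and 1.87-fold after BE-43547A1 (log2 0.90 ± 0.063, adjusted p = 3.94e-10), and with total counts alone it was still 2.10 and 0.66 on the log2 scale.

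CDT1, the second loading factor, was scarce and did not follow CDC6. CDT1 had 8.81, 7.07 and 8.63 CPM after rakicidin A, 5.35, 5.26 and 5.15 CPM after BE-43547A1 and 7.21, 5.91 and 7.67 CPM in DMSO. Rakicidin A libraries overlapped DMSO (0.23 ± 0.12, adjusted p = 0.0941), though the gene passed as higher without rakicidin A replicate 2 (0.35, adjusted p = 0.0245) or without DMSO replicate 3 (0.31, adjusted p = 0.0355). With total counts alone it was -0.13, adjusted p = 0.342. BE-43547A1 libraries lay below DMSO (-0.40 ± 0.12, adjusted p = 0.00523). GMNN, which encodes geminin, the inhibitor of CDT1, fell after both. GMNN had 32, 32 and 32.7 CPM after rakicidin A, 25.3, 25.8 and 23.8 CPM after BE-43547A1 and 44.4, 44.1 and 40.4 CPM in DMSO. No treated library reached the lowest DMSO library (-0.41 ± 0.064, adjusted p = 1.43e-05, and -0.78 ± 0.063, adjusted p = 2.73e-09).

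In the helicase ring 5 of the 6 genes fell after both compounds. Of all features 32.7% fell after rakicidin A and 35.1% after BE-43547A1. MCM2 to MCM6 had log2 fold changes between -0.47 and -0.35 in the rakicidin A group, and between -0.76 and -0.37 in the BE-43547A1 group. All 5 passed in both comparisons, and for each of them the treated libraries lay below every DMSO library. MCM3 had 169, 161 and 154 CPM after rakicidin A, 123, 129 and 121 CPM after BE-43547A1 and 208, 223 and 199 CPM in DMSO. MCM3 had the largest fall after BE-43547A1 (-0.76 ± 0.058, adjusted p = 1.20e-09) and a smaller one after rakicidin A (-0.38 ± 0.058, adjusted p = 1.25e-05). MCM2 had 71.5, 70.9 and 66.8 CPM after rakicidin A, 77.2, 71 and 67 CPM after BE-43547A1 and 98.2, 95.7 and 85.3 CPM in DMSO. MCM4 had 151, 154 and 149.9 CPM after rakicidin A, 145, 153 and 139.6 CPM after BE-43547A1 and 195, 177 and 208 CPM in DMSO. For MCM2 and MCM4 the libraries of the compounds interleaved with each other, below DMSO. MCM5 had 59.5, 54.3 and 53 CPM after rakicidin A, 57, 58.7 and 53.7 CPM after BE-43547A1 and 77.5, 77.2 and 75.7 CPM in DMSO. MCM6 had 35.9, 38.6 and 35 CPM after rakicidin A, 39.3, 40.7 and 33.3 CPM after BE-43547A1 and 48.3, 45.3 and 53.1 CPM in DMSO. MCM5 (-0.47 and -0.44) and MCM6 (-0.42 and -0.37) showed the same picture, with treated libraries interleaved below DMSO.

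MCM7 was the exception in the ring. MCM7 had 282, 288 and 271 CPM after rakicidin A, 249, 255 and 235 CPM after BE-43547A1 and 256, 255 and 230.5 CPM in DMSO. The rakicidin A libraries lay above DMSO by a small margin (0.18 ± 0.058, adjusted p = 0.00941), but with total counts alone MCM7 fell (-0.17, adjusted p = 0.0113). BE-43547A1 and DMSO libraries overlapped (-0.0042, adjusted p = 0.952). MCM8 had 139, 137 and 140.3 CPM after rakicidin A, 104, 111 and 108 CPM after BE-43547A1 and 137, 143 and 126 CPM in DMSO. MCM8, a helicase related to the ring that acts in recombination repair, did not pass after rakicidin A (0.038, adjusted p = 0.582) and fell after BE-43547A1 (-0.33 ± 0.057, adjusted p = 4.72e-05). With total counts alone MCM8 fell after rakicidin A as well (-0.32, adjusted p = 4.61e-05).

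Of the 6 genes that turn the loaded ring into the active helicase, 3 fell after rakicidin A and 6 fell after BE-43547A1, where 32.7% and 35.1% of all features fell. GINS1 encodes a subunit of the 4-part GINS complex. GINS1 had 45.3, 43.2 and 43.6 CPM after rakicidin A, 26, 26.3 and 24.9 CPM after BE-43547A1 and 81.5, 82.9 and 77.4 CPM in DMSO. GINS1 had the largest fall of the 51 genes after BE-43547A1 (-1.65 ± 0.058, adjusted p = 1.71e-14), and the 3 rakicidin A libraries lay between the BE-43547A1 and the DMSO libraries (-0.87 ± 0.057, adjusted p = 1.44e-10). MCM10 had 39.1, 38.4 and 39.5 CPM after rakicidin A, 20.3, 21.1 and 18.1 CPM after BE-43547A1 and 53.2, 53.5 and 51.7 CPM in DMSO. MCM10, which is needed for the activation of the helicase, fell after both (-0.44 ± 0.064, adjusted p = 7.61e-06, and -1.41 ± 0.065, adjusted p = 8.60e-13). GINS2 was lower in the libraries with rakicidin A (5.42, 5.75 and 5.67 CPM) and BE-43547A1 (6.63, 7.09 and 6.22 CPM) than in DMSO (10.5, 10.9 and 9.69 CPM), with log2 fold changes of -0.88 and -0.64.

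CDC45, the partner of GINS in the active helicase, moved little. CDC45 had 34.5, 34.3 and 34.9 CPM after rakicidin A, 26.8, 27.9 and 27.8 CPM after BE-43547A1 and 34.1, 34.4 and 29.1 CPM in DMSO. It did not pass after rakicidin A (0.087, adjusted p = 0.29), fell after BE-43547A1 (-0.24 ± 0.07, adjusted p = 0.00482), and after rakicidin A was -0.27, adjusted p = 0.00191 with total counts alone. GINS3 and GINS4 did not pass after rakicidin A (-0.015 and -0.15) and fell after BE-43547A1 (-0.47 and -0.39).

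**Figure D2:**
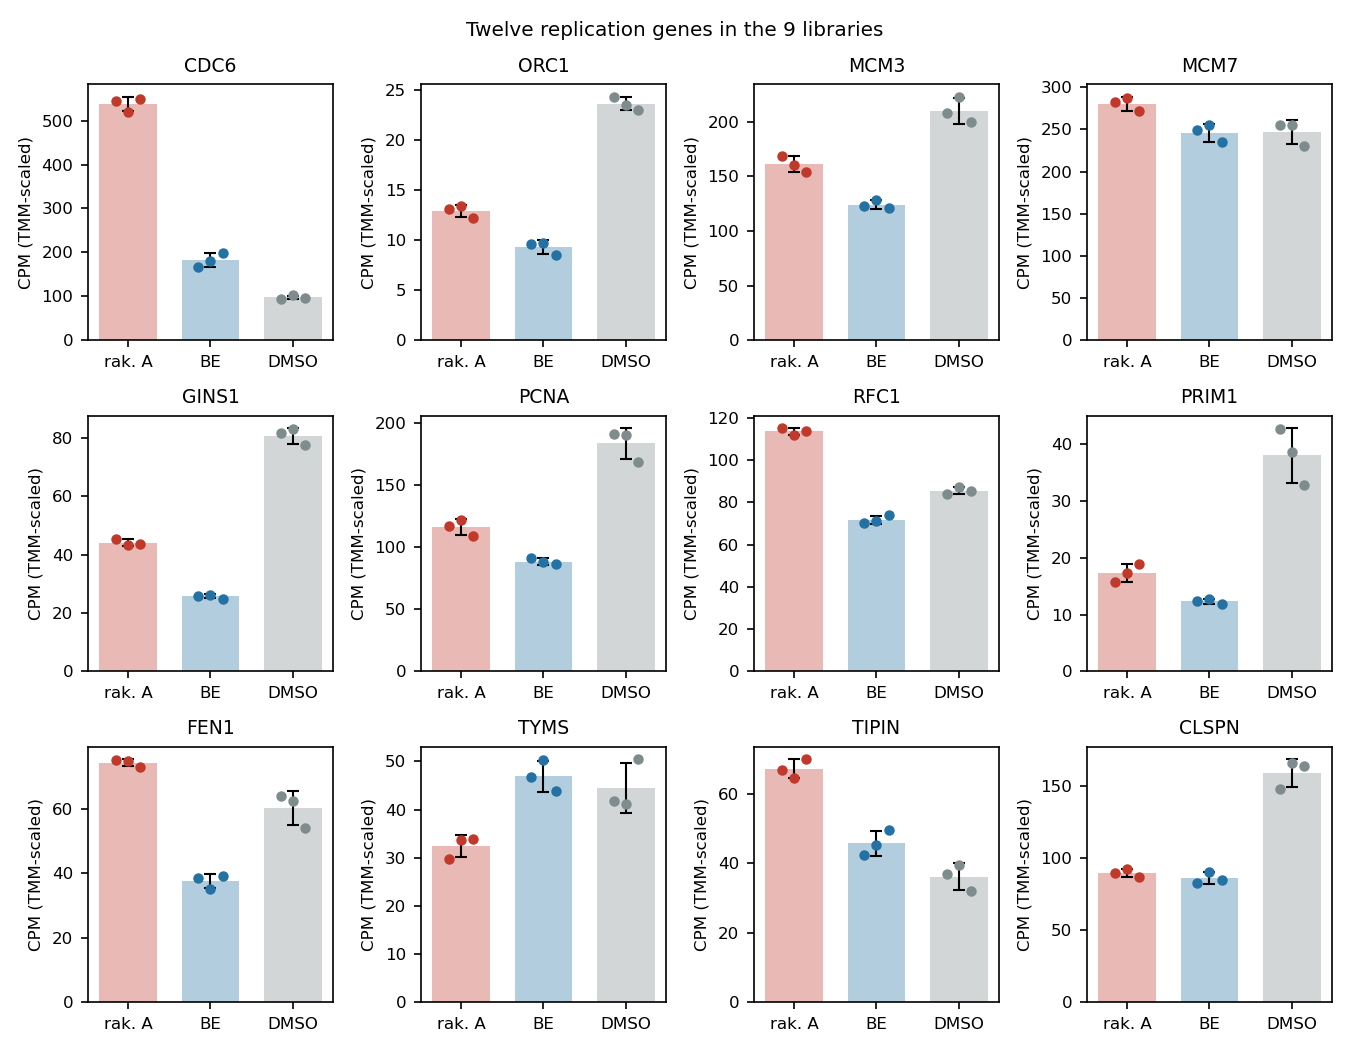
CPM (scaled by TMM, linear axis from 0) of 12 replication genes in the 3 groups, with rakicidin A, BE-43547A1 and DMSO from left to right. Bars are means of 3 libraries, whiskers SD and points libraries, and the CDC6 points lie above 500 CPM after rakicidin A and near 100 CPM in DMSO while those of ORC1, GINS1, PCNA, PRIM1 and CLSPN are lower in both treated groups than in DMSO.

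PCNA, the ring-shaped clamp that holds the polymerases on DNA, fell while its loader split. PCNA had 117, 122 and 109 CPM after rakicidin A, 91.4, 88.1 and 86.4 CPM after BE-43547A1 and 192, 191 and 169 CPM in DMSO. The 3 groups did not overlap (-0.66 ± 0.062, adjusted p = 2.40e-08, and -1.05 ± 0.062, adjusted p = 2.95e-11). RFC1, the large subunit of the clamp loader, rose after rakicidin A and fell after BE-43547A1. RFC1 had 115, 112 and 114 CPM after rakicidin A, 70.1, 71.3 and 73.9 CPM after BE-43547A1 and 83.8, 87.4 and 85.5 CPM in DMSO. Its log2 fold changes were 0.41 ± 0.052 (adjusted p = 1.40e-06) and -0.25 ± 0.052 (adjusted p = 0.000266), and the first was 0.05, adjusted p = 0.379 with total counts alone.

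The small loader subunits differed from each other. RFC4 had 65.9, 62.4 and 62.5 CPM after rakicidin A, 39.99, 43.5 and 40.3 CPM after BE-43547A1 and 80.7, 78.1 and 70.5 CPM in DMSO. RFC4 fell after both (-0.26 ± 0.063 and -0.89 ± 0.063). RFC2 had 42.4, 43.6 and 43.2 CPM after rakicidin A, 43.9, 41.3 and 38.5 CPM after BE-43547A1 and 37.8, 34.6 and 33.9 CPM in DMSO. RFC2 rose after both (0.28 ± 0.066, adjusted p = 0.00108, and 0.22 ± 0.065, adjusted p = 0.00589), changes of -0.077 and -0.018 that did not pass with total counts alone. RFC3 and RFC5 did not pass after rakicidin A (-0.073 and 0.015) and fell after BE-43547A1 (-0.43 and -0.30). Without DMSO replicate 3 RFC3 also fell after rakicidin A (-0.15, adjusted p = 0.0396), and with total counts alone RFC5 did (-0.34, adjusted p = 0.000112).

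Polymerase and primase genes fell in 7 of 9 cases after rakicidin A and in 6 of 9 after BE-43547A1, against the same 32.7% and 35.1% of all features. PRIM1, the catalytic subunit of the primase that starts each new strand, had the largest fall after rakicidin A. PRIM1 had 15.6, 17.4 and 18.9 CPM after rakicidin A, 12.4, 12.8 and 11.9 CPM after BE-43547A1 and 42.5, 38.6 and 32.8 CPM in DMSO. Every treated library was below the lowest DMSO library (-1.14 ± 0.092, adjusted p = 3.28e-09, and -1.62 ± 0.092, adjusted p = 1.89e-11). PRIM2 encodes the large subunit of the same enzyme. PRIM2 had 68.5, 70.2 and 77.3 CPM after rakicidin A, 50.9, 46.6 and 47.7 CPM after BE-43547A1 and 59.5, 57.5 and 42.1 CPM in DMSO. DMSO replicate 3 was the lowest library of its group. PRIM2 rose after rakicidin A (0.44 ± 0.095, adjusted p = 0.000494), and that change was 0.084, adjusted p = 0.443 with total counts alone. After BE-43547A1 it did not pass (-0.13, adjusted p = 0.229), but it fell without DMSO replicate 3 (-0.28, adjusted p = 0.000331).

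POLD3, an accessory subunit of polymerase delta, and POLE2, the second subunit of polymerase epsilon, also fell strongly. POLD3 had 43.3, 42.3 and 44.2 CPM after rakicidin A, 22, 21.4 and 23 CPM after BE-43547A1 and 69.8, 66.7 and 65.4 CPM in DMSO. POLE2 had 10.3, 11 and 11.4 CPM after rakicidin A, 8.39, 9.46 and 9.36 CPM after BE-43547A1 and 22.1, 23.7 and 19.8 CPM in DMSO. For POLD3 the groups did not overlap, with -0.64 ± 0.058 and -1.60 ± 0.059. For POLE2 both treated groups lay below DMSO, with -1.01 ± 0.089 and -1.27 ± 0.087. All 4 adjusted p were at most 1.6e-08. The catalytic subunits of the polymerases moved less than POLD3 and POLE2. POLA1 (-0.20 and -0.42) and POLE (-0.33 and -0.35) fell after both, and POLA1 after rakicidin A was -0.14, adjusted p = 0.0923 without rakicidin A replicate 1.

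POLD1, the catalytic subunit of polymerase delta, passed after rakicidin A (-0.20 ± 0.07, adjusted p = 0.0205) but not in DESeq2 (-0.17, adjusted p = 0.088), in the fit of the 6 libraries (-0.18, adjusted p = 0.0532) or without the filter (-0.21, adjusted p = 0.0629). It did not pass either without rakicidin A replicate 1 (-0.17, adjusted p = 0.0811), rakicidin A replicate 2 (-0.17, adjusted p = 0.0943) or DMSO replicate 2 (-0.15, adjusted p = 0.105). After BE-43547A1 POLD1 had -0.093 (adjusted p = 0.23). POLD2 fell after rakicidin A (-0.27 ± 0.06, adjusted p = 0.00058), and after BE-43547A1 had 0.021 (adjusted p = 0.763), or -0.22, adjusted p = 0.00442 with total counts alone. POLA2 had -0.056 after rakicidin A (adjusted p = 0.456) and fell after BE-43547A1 (-0.60 ± 0.063).

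Of the genes for single-strand binding and for finishing the lagging strand, FEN1 moved in opposite directions. FEN1 encodes the nuclease that trims the flaps of Okazaki fragments. FEN1 had 75.3, 74.8 and 73 CPM after rakicidin A, 38.6, 35.2 and 39.1 CPM after BE-43547A1 and 63.9, 62.5 and 54.1 CPM in DMSO. Rakicidin A libraries lay above DMSO (0.31 ± 0.067, adjusted p = 0.000541) and BE-43547A1 libraries below it (-0.68 ± 0.067, adjusted p = 4.85e-08), but with total counts alone the first was -0.051, adjusted p = 0.499. LIG1 had 24.9, 24.7 and 22.1 CPM after rakicidin A, 27.4, 28.8 and 26.3 CPM after BE-43547A1 and 29.9, 28.3 and 29.6 CPM in DMSO. LIG1, the ligase that seals the fragments, fell after rakicidin A (-0.29 ± 0.07, adjusted p = 0.00131) and after BE-43547A1 had -0.089 (adjusted p = 0.25).

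The 3 subunits of RPA, which coats single-stranded DNA, gave different pictures. RPA3 had 47.5, 44.5 and 47.7 CPM after rakicidin A, 58, 60.03 and 59.6 CPM after BE-43547A1 and 73.7, 74.6 and 59.2 CPM in DMSO. RPA3 fell after both (-0.57 ± 0.075 and -0.22 ± 0.074), the second with an overlap of the libraries and lost without BE-43547A1 replicate 1 (-0.19, adjusted p = 0.0573), DMSO replicate 1 (-0.18, adjusted p = 0.0504) or DMSO replicate 2 (-0.17, adjusted p = 0.0602). RPA1 had 22.5, 24.6 and 24.6 CPM after rakicidin A, 31.2, 31 and 28.1 CPM after BE-43547A1 and 31.1, 25.5 and 42.2 CPM in DMSO. DMSO replicate 3 was the highest RPA1 library by far, and the fall after rakicidin A (-0.47 ± 0.12, adjusted p = 0.0028) was -0.25, adjusted p = 0.0126 without it. RPA1 after BE-43547A1 had -0.13 (adjusted p = 0.328) and passed as lower without DMSO replicate 2 (-0.29, adjusted p = 0.0138), while without DMSO replicate 3 it was 0.078, adjusted p = 0.392. RPA2 had 50.8, 49.6 and 53.5 CPM after rakicidin A, 41.7, 42.8 and 41.5 CPM after BE-43547A1 and 57.6, 56.2 and 49 CPM in DMSO. RPA2 did not pass after rakicidin A (-0.082, adjusted p = 0.282), passed as lower without DMSO replicate 3 (-0.15, adjusted p = 0.0226), and fell after BE-43547A1 (-0.37).

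Ribonucleotide reductase makes the deoxynucleotides, and its subunit genes changed unequally. RRM2 had 239, 244 and 231 CPM after rakicidin A, 240.4, 251 and 230.1 CPM after BE-43547A1 and 416, 402 and 437 CPM in DMSO. RRM2, the small subunit whose level is known to rise in S phase, fell after both (-0.81 ± 0.055, adjusted p = 2.53e-10, and -0.80 ± 0.055, adjusted p = 3.07e-10). RRM1 had 371, 359 and 371 CPM after rakicidin A, 334, 344 and 330.0 CPM after BE-43547A1 and 402, 394 and 347 CPM in DMSO. RRM1, the large subunit, had -0.054 after rakicidin A (adjusted p = 0.43), or -0.12, adjusted p = 0.0357 without DMSO replicate 3, and fell slightly after BE-43547A1 (-0.18 ± 0.058, adjusted p = 0.00952). TYMS makes thymidylate. TYMS had 29.8, 33.8 and 33.8 CPM after rakicidin A, 46.8, 50.3 and 43.8 CPM after BE-43547A1 and 41.8, 41.3 and 50.6 CPM in DMSO. The rakicidin A libraries were the lowest. The fall was -0.46 ± 0.082 (adjusted p = 8.63e-05), and after BE-43547A1 TYMS had 0.075 (adjusted p = 0.411) and passed as higher without DMSO replicate 3 (0.17, adjusted p = 0.0315), but was -0.16, adjusted p = 0.0796 with total counts alone. TK1, the thymidine kinase of the salvage route, had -0.14 (adjusted p = 0.0597) and -0.048 (adjusted p = 0.485). TK1 passed as lower after rakicidin A without DMSO replicate 2 (-0.17, adjusted p = 0.0372) and in thinned libraries (-0.15, adjusted p = 0.0409).

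The genes that copy chromatin and DNA methylation behind the fork fell in 3 of 3 cases after either compound, against 32.7% and 35.1% of all features. UHRF1 had 21.2, 23.9 and 22.2 CPM after rakicidin A, 26.1, 27 and 24.8 CPM after BE-43547A1 and 35.3, 34.4 and 42.3 CPM in DMSO. UHRF1 reads hemimethylated DNA and recruits the methyltransferase, and its treated libraries lay below DMSO (-0.73 ± 0.082, adjusted p = 2.49e-07, and -0.53 ± 0.079, adjusted p = 9.60e-06). CHAF1A and CHAF1B encode subunits of the histone chaperone CAF-1. CHAF1A had 40.03, 41.7 and 37.1 CPM after rakicidin A, 27.2, 29.7 and 29.2 CPM after BE-43547A1 and 43, 49.7 and 51.4 CPM in DMSO. CHAF1B had 13, 13.3 and 14.9 CPM after rakicidin A, 11.4, 12.9 and 10.7 CPM after BE-43547A1 and 17.4, 18.9 and 21.7 CPM in DMSO. CHAF1A (-0.28 and -0.74) and CHAF1B (-0.50 and -0.73) fell after both, with no overlap with DMSO.

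The 2 fork protection genes went opposite ways. TIPIN, which with TIMELESS steadies the paused fork, rose after both. TIPIN had 66.8, 64.6 and 70.1 CPM after rakicidin A, 42.5, 45.3 and 49.6 CPM after BE-43547A1 and 36.9, 39.5 and 31.9 CPM in DMSO. The 3 groups did not overlap (0.89 ± 0.077, adjusted p = 7.37e-09, and 0.34 ± 0.077, adjusted p = 0.000625), and with total counts alone the changes were 0.54, which passed, and 0.10, adjusted p = 0.21. CLSPN, which encodes claspin, the adaptor that passes the checkpoint signal to the kinase CHK1, fell. CLSPN had 89.9, 92.3 and 86.6 CPM after rakicidin A, 83, 90.5 and 84.5 CPM after BE-43547A1 and 148, 166 and 164 CPM in DMSO. All treated libraries lay below DMSO (-0.83 ± 0.06, adjusted p = 5.75e-10, and -0.89 ± 0.059, adjusted p = 1.88e-10).

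**Figure D3:**
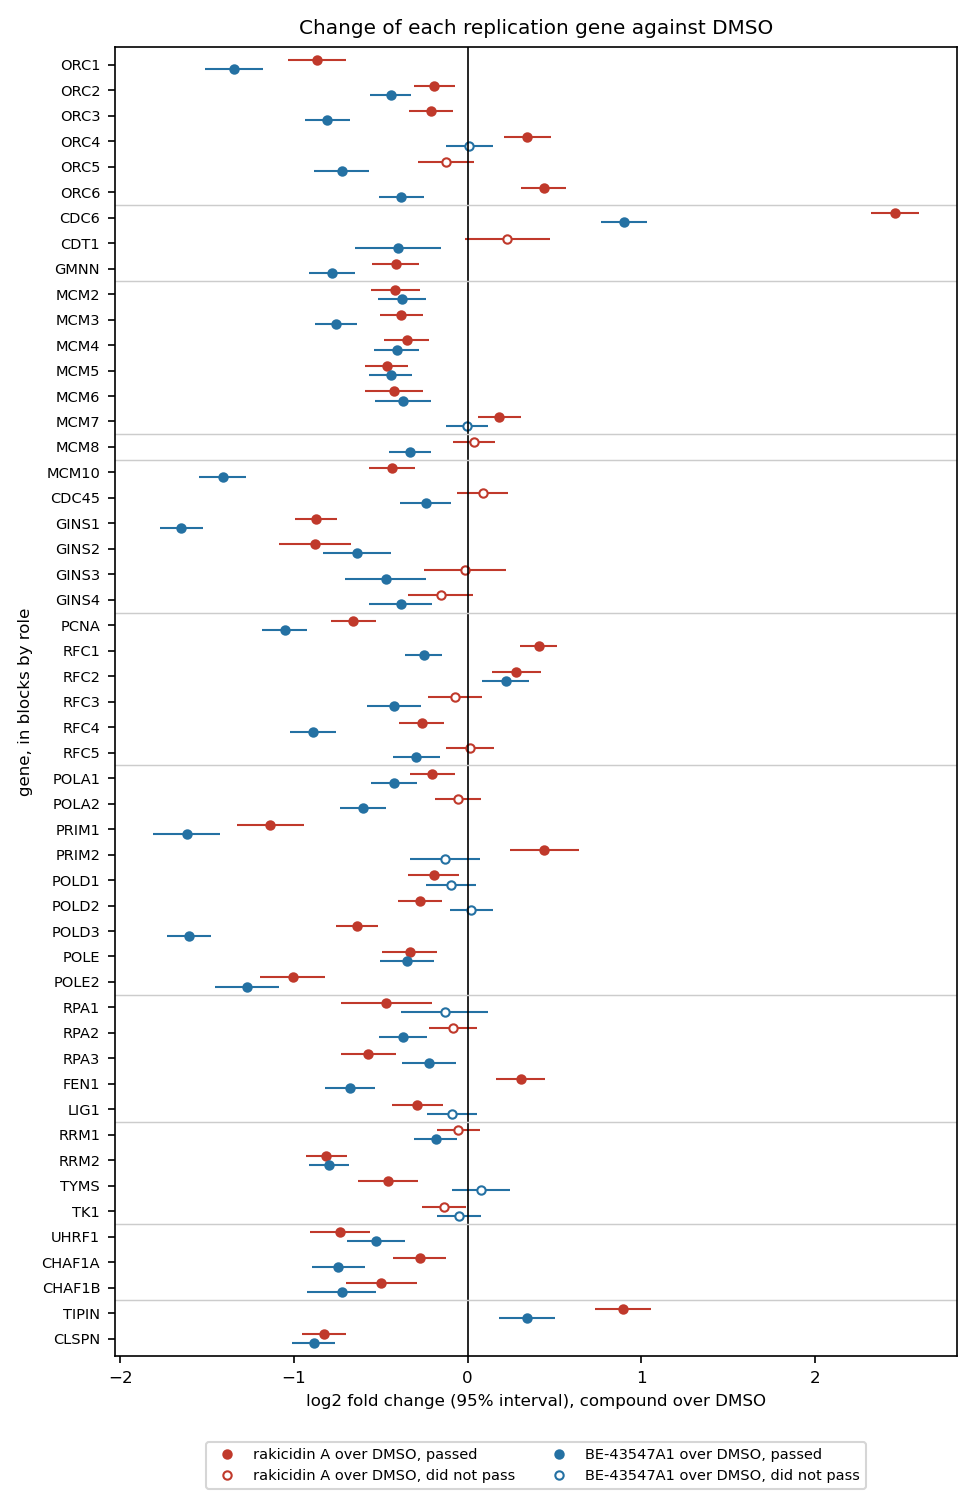
Log2 fold change of each of the 51 genes over DMSO for rakicidin A (red) and BE-43547A1 (blue), in blocks by role. Points are fitted values, lines 95% intervals and open points values that did not pass. CDC6 stands alone at 2.46 after rakicidin A and has the highest BE-43547A1 point at 0.90, while most points lie left of 0.

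Rakicidin A and BE-43547A1 were then compared with each other, at 42 and 41 nM, doses that differ slightly. Of the 51 genes 32 were higher after rakicidin A than after BE-43547A1 and 6 were lower, that is 62.7 and 11.8%, against 24.1% and 22.5% of all features. The median log2 difference was 0.31, where that of all features was -0.022. With total counts alone 27 were higher and 9 lower, with the median of all features at -0.14 and 3923 features higher against 6868 lower. CDC6 differed most (1.56 ± 0.064, adjusted p = 1.66e-11), followed by FEN1 (0.98 ± 0.067), MCM10 (0.97 ± 0.066), POLD3 (0.97 ± 0.06), ORC6 (0.82 ± 0.061) and GINS1 (0.78 ± 0.059), each with an adjusted p of at most 8.83e-09 and no overlap of the libraries. All 6 ORC genes, the 3 genes of CDC6, CDT1 and geminin, and 5 of the 6 helicase activators were higher after rakicidin A.

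Genes lower after rakicidin A than after BE-43547A1 were TYMS (-0.53 ± 0.082, adjusted p = 3.29e-05), RPA3 (-0.35 ± 0.075), POLD2 (-0.30 ± 0.06), RPA1 (-0.33 ± 0.12, adjusted p = 0.0325), UHRF1 (-0.21 ± 0.082, adjusted p = 0.0445) and LIG1 (-0.20 ± 0.069, adjusted p = 0.0231). For the last 3 the call depended on the libraries or the tool. RPA1 had -0.31, adjusted p = 0.057 in DESeq2 and was lost without any 1 of rakicidin A replicates 1, 2 and 3 (-0.29, -0.35 and -0.34) or BE-43547A1 replicates 1 and 2 (-0.31 and -0.31). UHRF1 was lost with RLE factors (-0.20, adjusted p = 0.0502), in DESeq2 (-0.19, adjusted p = 0.117) and without rakicidin A replicate 1 or 3 (-0.16 and -0.19) or BE-43547A1 replicate 1 or 2 (-0.21 and -0.18). LIG1 was lost in DESeq2 (-0.18, adjusted p = 0.0644) and without rakicidin A replicate 3 (-0.14, adjusted p = 0.16) or BE-43547A1 replicate 2 (-0.17, adjusted p = 0.108).

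Among the higher genes 5 calls were lost with total counts alone, those of ORC2 (0.13), POLA1 (0.10), MCM7, GINS4 (0.11) and POLE2 (0.14), and the last 3 also under other settings. MCM7 (0.19 ± 0.058, adjusted p = 0.0121) had 0.067, adjusted p = 0.348 with total counts alone, 0.16, adjusted p = 0.053 without the filter and 0.16, adjusted p = 0.0501 without BE-43547A1 replicate 3. GINS4 (0.23 ± 0.089, adjusted p = 0.0403) was lost in thinned libraries (0.19), without the filter (0.21), and when rakicidin A replicate 2 (0.16, adjusted p = 0.222) or BE-43547A1 replicate 2 or 3 was left out (0.23 and 0.20). POLE2 (0.26 ± 0.093, adjusted p = 0.0278) was lost without the filter (0.24), without rakicidin A replicate 2 or 3 (0.26 and 0.24) and without BE-43547A1 replicate 1 (0.20, adjusted p = 0.138).

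For 13 genes no difference between the compounds passed. In the helicase ring these were MCM2 (log2 -0.041, 95% interval -0.18 to 0.099), MCM4 (0.059, -0.071 to 0.19), MCM5 (-0.023, -0.15 to 0.10) and MCM6 (-0.05, -0.22 to 0.12), and none of these intervals reached beyond -0.22 or 0.19. RRM2 (-0.015, -0.13 to 0.10) and CLSPN (0.06, -0.066 to 0.19) fell after both compounds, with intervals narrower than that of MCM6. POLE (-0.14 to 0.17), RFC2 (-0.075 to 0.20), POLD1 (-0.25 to 0.044) and TK1 (-0.22 to 0.04) had intervals across 0. With total counts alone POLD1 (-0.22, adjusted p = 0.0139), TK1 (-0.21, adjusted p = 0.0107) and GINS2 (-0.36, adjusted p = 0.00652) were lower after rakicidin A than after BE-43547A1. GINS2 (-0.46 to -0.031, adjusted p = 0.0561), RRM1 (0.0056 to 0.25, adjusted p = 0.0807) and CHAF1B (0.022 to 0.44, adjusted p = 0.0658) had intervals that left out 0 without passing after adjustment. Those 3 passed in the fit of the 6 libraries and when 1 library was left out, GINS2 without BE-43547A1 replicate 3 (-0.28, adjusted p = 0.0463), RRM1 without DMSO replicate 1 or 3 (0.14 and 0.14) and CHAF1B without BE-43547A1 replicate 2 (0.31) or DMSO replicate 1 or 3 (0.24 and 0.24).

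**Figure D4:**
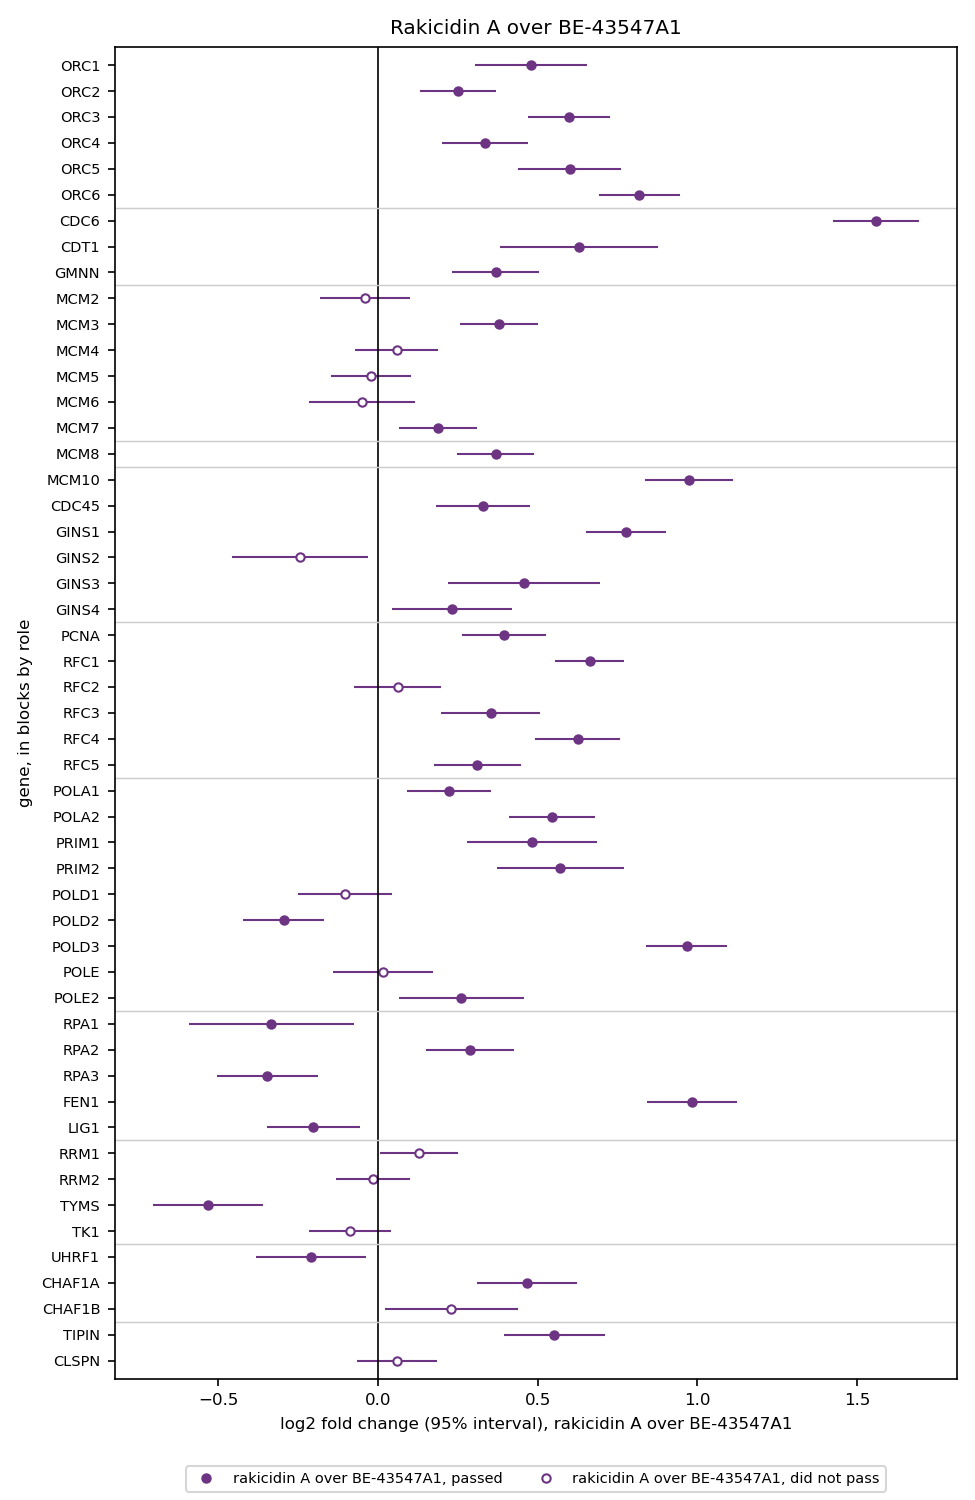
Log2 fold change of rakicidin A over BE-43547A1 for each of the 51 genes, in blocks by role. Points are fitted values, lines 95% intervals and open points values that did not pass, and the 6 ORC genes lie right of 0 while MCM2, MCM4, MCM5 and MCM6 lie on it.

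Ratios of counts between genes of the same library do not depend on how libraries are scaled, and they show the unequal change within complexes. For every CDC6 count there were several MCM counts in DMSO. The ratio of CDC6 to the sum of MCM2 to MCM7 was 0.708, 0.677 and 0.753 after rakicidin A, 0.243, 0.256 and 0.306 after BE-43547A1 and 0.107, 0.117 and 0.114 in DMSO. The groups did not overlap in this ratio. CDC6 stood to CDT1 at 61.8, 73.5 and 63.7 after rakicidin A, 31.4, 34.4 and 38.6 after BE-43547A1 and 13.1, 17.4 and 12.6 in DMSO. PRIM2 stood to PRIM1 at 4.37, 4.04 and 4.09 in rakicidin A libraries, 4.12, 3.63 and 4.0 in BE-43547A1 libraries and 1.40, 1.49 and 1.28 in DMSO libraries, where the treated groups overlapped each other and lay above DMSO.

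ORC6 stood to ORC1 at 3.86, 3.67 and 4.09 after rakicidin A, 2.82, 2.92 and 3.48 after BE-43547A1 and 1.52, 1.64 and 1.54 in DMSO, with no overlap between groups. TIPIN stood to CLSPN at 0.743, 0.699 and 0.809 after rakicidin A, 0.512, 0.501 and 0.587 after BE-43547A1 and 0.249, 0.239 and 0.195 in DMSO. RRM2 stood to RRM1 at 0.645, 0.678 and 0.623 after rakicidin A, 0.720, 0.731 and 0.697 after BE-43547A1 and 1.03, 1.02 and 1.26 in DMSO, where replicate 3 was the highest. FEN1 to LIG1 was the ratio with the compounds on opposite sides of DMSO, at 3.03, 3.03 and 3.31 with rakicidin A against 1.41, 1.23 and 1.48 with BE-43547A1, and 2.13, 2.21 and 1.83 in DMSO. MCM7 to MCM3, within the ring, was 1.67, 1.79 and 1.76 after rakicidin A, 2.03, 1.99 and 1.94 after BE-43547A1 and 1.23, 1.15 and 1.16 in DMSO. With 3 libraries against 3, an exact permutation test of a single ratio cannot go below p = 0.1 (two-sided), so no p is given. The pairs were chosen after their values were seen.

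**Figure D5:**
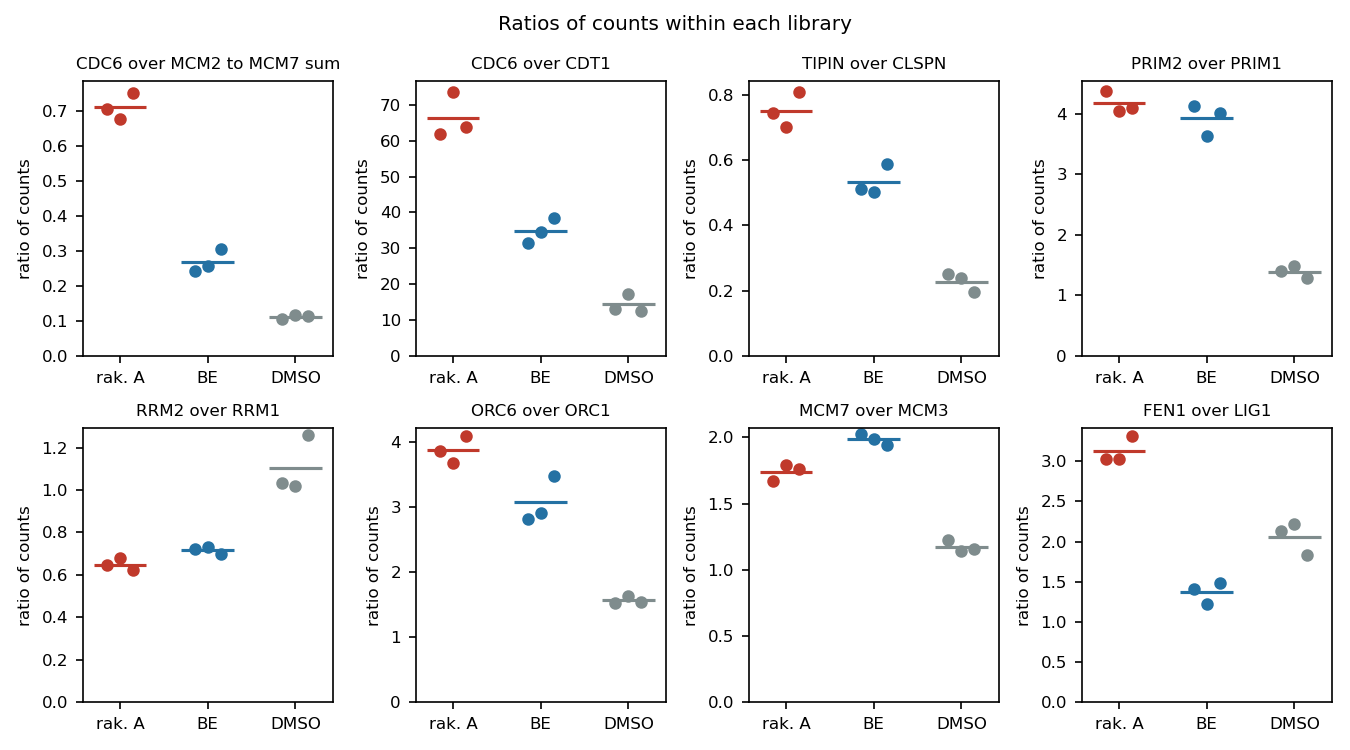
Ratios of raw counts between genes of the same library, for 8 pairs, with rakicidin A, BE-43547A1 and DMSO from left to right. Points are libraries and short lines group means, on linear axes from 0, and the ratio of CDC6 to the MCM2 to MCM7 sum is highest after rakicidin A and lowest in DMSO.

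Levels of different genes can be compared per length. In DMSO the mean CPM per kilobase of exon was 125 for PCNA, 91.3 for RRM1 and 78.6 for RRM2, the highest of the 51 genes, and 1.59 for GINS3 and 2.08 for CDT1, the lowest. Within the ring it was 57.6 for MCM3, 56.3 for MCM7, 27.8 for MCM4, 19 for MCM2, 11.9 for MCM6 and 10.5 for MCM5. CDC6 reached 96.8 CPM per kilobase after rakicidin A and 32.8 after BE-43547A1, against 17.6 in DMSO, while CDT1 had 2.45 after rakicidin A, 1.58 after BE-43547A1 and 2.08 in DMSO. Lengths are merged exons of GENCODE release 29 on GRCh38, not the annotation used for counting, so these levels are approximate. The order of genes depends on these merged lengths. MCM5, with 7338 bases, had 76.8 CPM in DMSO, and MCM6, with 4118 bases, had 48.9 CPM.

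Some members share sequence or exons with other genes, and their counts are uncertain to that degree. The count table names 3 pseudogenes each of PCNA, RPA2 and RRM2 and 1 each of RFC3, POLD2 and FEN1. In GENCODE release 29, exons of other genes on the opposite strand cover 46.6% of the exon bases of TYMS and 23.6% of those of MCM2 and of GINS4, and exons on the same strand cover 35.1% of POLA2, 21% of TIPIN, 20.2% of RRM2 and 16.2% of PRIM1. Whether reads were counted by strand is not given in the sources used here.

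Other genes of the pathway also moved in both directions, with most of them lower. Of 66 such genes in 7 lists, all tested, 18 rose and 37 fell after rakicidin A (median -0.26) and 10 rose and 44 fell after BE-43547A1 (median -0.36). These are 27.3% higher and 56.1% lower against 31.9% and 32.7% of all features in the first comparison, and 15.2% and 66.7% against 35.3% and 35.1% in the second. In the direct comparison 40 were higher after rakicidin A than after BE-43547A1 and 5 were lower, that is 60.6 and 7.58% against 24.1% and 22.5% of all features. The list of kinases and factors that fire licensed origins also held MCM9 and MCMBP. Of its 11 genes 7 fell after rakicidin A and 9 after BE-43547A1, against 32.7% and 35.1% of all features. TICRR, which helps load CDC45, averaged 12.1 ± 0.687 CPM after rakicidin A, 7.31 ± 0.253 CPM after BE-43547A1 and 30.3 ± 3.66 CPM in DMSO (± SD, n = 3), with log2 fold changes of -1.33 and -2.05. CDC7, the kinase that phosphorylates the MCM ring, averaged 27.3 ± 0.831 CPM with rakicidin A, 23.1 ± 1.51 CPM with BE-43547A1 and 58.6 ± 2.83 CPM in DMSO (-1.10 and -1.34), and MCM9, the partner of MCM8, fell too (-0.59 and -0.87).

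Among other fork subunits 2 of 14 rose and 9 fell after rakicidin A, and 1 rose and 7 fell after BE-43547A1. Of all features 31.9% rose and 32.7% fell in the first comparison, and 35.3% and 35.1% in the second, which holds for the further deoxynucleotide and chromatin genes as well. TOP1, the topoisomerase that relaxes DNA ahead of the fork, averaged 114 ± 6.12 CPM after rakicidin A, 104 ± 6.65 CPM after BE-43547A1 and 41.3 ± 2.99 CPM in DMSO, with log2 fold changes of 1.46 and 1.33, while DSCC1 of an alternative clamp loader (-1.10 and -1.38) and the nuclease gene DNA2 (-0.87 and -1.05) fell. TIMELESS, the partner of TIPIN, looked up after the TIPIN values were seen, had 44.6, 49.4 and 46 CPM after rakicidin A, 65, 76.7 and 63 CPM after BE-43547A1 and 48.3, 47.6 and 77.5 CPM in DMSO. It did not pass after rakicidin A (-0.31, adjusted p = 0.0507) or BE-43547A1 (0.24, adjusted p = 0.112). DMSO replicate 3 was its highest DMSO library, and without it TIMELESS was -0.038, adjusted p = 0.675 after rakicidin A and higher after BE-43547A1 (0.50, adjusted p = 2.69e-06). Of 6 further deoxynucleotide genes 5 fell after rakicidin A and 6 after BE-43547A1, with SAMHD1 at -0.53 and -0.63 and DUT at -0.64 and -0.42. Of 6 further chromatin copying genes 2 rose and 3 fell after rakicidin A, and 1 rose and 5 fell after BE-43547A1, among them the histone chaperone gene NASP (-0.44 and -0.75), ASF1B (-0.24, which did not pass without DMSO replicate 3 at -0.24, adjusted p = 0.0561, and -0.52) and HELLS (-0.23 and -0.38).

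Of the 13 E2F factors and pocket protein partners, 5 were higher and 7 lower after rakicidin A, that is 38.5% and 53.8% against 31.9% and 32.7% of all features. With BE-43547A1 3 were higher and 7 lower, that is 23.1% and 53.8% against 35.3% and 35.1%. E2F2, an activator, averaged 2.24 ± 0.451 CPM after rakicidin A, 2.13 ± 0.0922 CPM after BE-43547A1 and 7.0 ± 0.289 CPM in DMSO, with log2 fold changes of -1.63 and -1.71. The repressors E2F8 and E2F7 parted, as E2F8 fell (-1.63 and -1.47) and E2F7 rose to 115 ± 1.80 CPM after rakicidin A and 71.1 ± 1.74 CPM after BE-43547A1, against 40.5 ± 2.0 CPM in DMSO. E2F1, the best known activator and looked up for that reason, did not pass after either (-0.078, adjusted p = 0.369, and 0.022, adjusted p = 0.796).

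Genes for the turnover of licensing factors held SKP2, with the largest fall of the 66 genes. SKP2, a ubiquitin ligase subunit that has CDT1 and the inhibitor p27 among its substrates, averaged 4.14 ± 0.150 CPM after rakicidin A, 3.07 ± 0.366 CPM after BE-43547A1 and 32.2 ± 0.581 CPM in DMSO, with log2 fold changes of -2.96 ± 0.094 and -3.39 ± 0.092. CCNF, which encodes cyclin F, a ligase subunit known to target CDC6 and RRM2, averaged 14.5 ± 0.874 CPM with rakicidin A, 7.85 ± 0.422 CPM with BE-43547A1 and 43.4 ± 0.383 CPM in DMSO (-1.58 ± 0.072 and -2.46 ± 0.074). FBXO5, which encodes the inhibitor EMI1, fell too (-0.24 and -1.21). In this list 3 of 8 rose and 3 fell with rakicidin A, 37.5% each way, which is near the 31.9% and 32.7% of all features. With BE-43547A1 3 rose and 5 fell, 37.5% and 62.5% against 35.3% and 35.1%. Of the 8 replication checkpoint genes 4 rose and 3 fell with rakicidin A, 50% and 37.5% against 31.9% and 32.7%, and 2 rose and 5 fell with BE-43547A1, 25% and 62.5% against 35.3% and 35.1%. RAD9A, of the checkpoint clamp, averaged 24.7 ± 0.972 CPM after rakicidin A, 15.9 ± 0.572 CPM after BE-43547A1 and 4.81 ± 0.345 CPM in DMSO (2.36 and 1.72), while the checkpoint kinase gene ATR (-0.81 and -1.04) and RAD17, which loads that clamp (-0.59 and -0.92), fell.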

How the data were processed

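TopHat2 and HTSeq, with builds GRCh37 and hg19, are named in the labels as taken from the submitters' processing notes. Their settings, versions and strand option are not given in the sources used. The deposited table gives raw counts per annotated feature in 9 paired-end libraries, as the authors made it. Its 5 summary entries name no gene and were left out of library sizes and tests. Reads on no feature were 16.4 to 20.8% of all entries.

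Analysis used R 4.3.3 and edgeR 4.0.16. After filterByExpr, 22353 features remained. TMM factors were 0.890 to 0.898 for rakicidin A, 0.963 to 0.989 for BE-43547A1 and 1.145 to 1.153 for DMSO. One quasi-likelihood fit held all 9 libraries, with the group as its only term. P-values were adjusted by Benjamini-Hochberg over all features, with a threshold of 0.05. A standard error is the size of the log2 fold change divided by the root of its F statistic. Replicates differed by more than counting noise, a spread that may be technical, and each was kept as a sample. The test was first run on simulated data with known changes. Alternatives tried were RLE factors, library totals with no factors, no filter, DESeq2 1.42.0, a fit of 6 libraries, a replicate block, thinning to 26203326 counts, and leaving out each library. Members and lists were chosen with earlier results of these data known. Library values are given for members with a called log2 fold change of at least 1 over DMSO, the licensing genes, PCNA, MCM2 to MCM7 and the 2 largest called changes in each direction of each role group, and for some others. Other lists name up to 3 genes by size of change, and 1 gene so chosen is not reported here.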

Additional observations from a re-analysis of the deposited data

How the results depend on the processing

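Counts of rising and falling genes kept within 1.5 times of the values in the report under RLE factors, no filter, the 6 libraries of a comparison, the replicate block and thinning, in all 3 comparisons. Total counts alone left 2 rising genes after rakicidin A and 1 after BE-43547A1. With total counts alone these log2 changes after rakicidin A, called in at least 1 of the scalings, turned sign: ORC4 -0.014, MCM7 -0.17, MCM8 -0.32, CDC45 -0.27, RFC2 -0.077, RFC5 -0.34 and FEN1 -0.051. After BE-43547A1 those of ORC4 -0.23, RFC2 -0.018 and POLD2 -0.22 did. CDT1 after rakicidin A (-0.13) and TYMS after BE-43547A1 (-0.16) turned sign too, called in neither scaling, as did MCM4, RFC2, POLE and CLSPN between the compounds. Another scaling factor moves all genes of a comparison by about the same amount. Genes lower after rakicidin A than after BE-43547A1 numbered 3 in DESeq2 and 3 to 7 with 1 library left out. The cause was not tested.

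Deviations of same-numbered libraries from their group means had r from -0.057 to 0.122. Those of differently numbered libraries had r from -0.0967 to 0.0925. Such values cannot tell whether the libraries were prepared in pairs. With the replicate block, 9 genes rose and 30 fell after rakicidin A, 3 rose and 39 fell after BE-43547A1, and 32 were higher and 5 lower in the direct comparison, where UHRF1 was lost (-0.21, adjusted p = 0.0534). Only GENCODE entries were used, 1 for each member, and entries of other catalogues were not added to them. RPA1, CDT1, GINS3 and GINS2 had the widest 95% intervals between the compounds. GINS2 had as few as 132 counts in a library, which limits its precision. With 1 library of a group left out, the remaining libraries share the spread of all groups. For the genes of the other lists, values without DMSO replicate 3 were added after seeing the data. Of the 66, 18 rose and 38 fell after rakicidin A, and 11 rose and 44 fell after BE-43547A1. Without that library 7254 of all 23576 features tested rose and 7393 fell after rakicidin A. After BE-43547A1 8195 rose and 8058 fell.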
